A study of Mus musculus with 12 samples.

Results

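The microRNA (miRNA) profile of the mouse hippocampus (HP) was described from 6 of the 12 samples of the series, chosen by their tissue label alone. In these samples 452 miRNAs had at least 1 read count, of 469 in the whole series, and 427 had at least 2. The entire hippocampi of 3 male C57BL/6J mice, 8 weeks of age and housed singly before collection, were pooled, and total RNA was isolated from the pooled tissue. From this single pool 3 small RNA libraries were made, which differed in a 6-nt tag of the 5′ adaptor next to the miRNA, UUAGGC (index 3), CAGAUC (index 7) or GGCUAC (index 11). Every library was sequenced first in a lane of its own and then in a lane shared by the 3 libraries, and the counts of both runs were summed. The spread between the 3 libraries is therefore technical and includes the index, each index was prepared once, and variation between mice was not measured.

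miRNAs are short RNAs that guide Argonaute proteins to partly complementary messenger RNAs, which are then repressed or degraded. Pairing is led by the seed, bases 2 to 8 of the mature miRNA, so miRNAs that share a seed form a family with overlapping targets. Many are cut from hairpins that lie close together in 1 primary transcript, and either arm of a hairpin can give a mature miRNA, the less abundant being marked with a star. In the hippocampus miRNAs are known for roles in neuronal differentiation, dendrite growth and synaptic plasticity.

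The most abundant seed families are listed first, because the profile was dominated by them. Sequences are RefSeq entries for the GRCm38.p6 assembly, written 5′ to 3′ in lower case with the seed in capitals. The let-7 family, which promotes differentiation and restrains growth, was represented by 9 miRNAs that share every letter of the seed.
let-7c: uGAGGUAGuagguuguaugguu
let-7a: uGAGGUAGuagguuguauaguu
let-7b: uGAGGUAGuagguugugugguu
let-7f: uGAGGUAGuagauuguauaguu
let-7e: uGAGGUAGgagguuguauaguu
let-7d: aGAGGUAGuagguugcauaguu
let-7g: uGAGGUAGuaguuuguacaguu
let-7i: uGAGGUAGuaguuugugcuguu
miR-98: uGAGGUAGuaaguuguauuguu

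Counting positions from 1 at the 5′ end of let-7c, let-7a differs from it by G19A alone and let-7b by A17G alone, whereas let-7i differs by G12U, A17G, U18C and G19U. The reads were aligned with up to 2 mismatches, so reads of such close members may have been counted for each other, and how often this happened was not tested.

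Of the next families, miR-29 acts on collagen and DNA methyltransferase messages, miR-128, miR-9 and miR-137 are enriched in the brain, miR-103/107 lie in introns of pantothenate kinase genes, and miR-125 and miR-99/100 are partners of let-7 in its genomic clusters. They are shown to mark which bases separate their members.
miR-29a: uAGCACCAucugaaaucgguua
miR-29c: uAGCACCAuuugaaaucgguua
miR-29b: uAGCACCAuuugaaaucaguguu
miR-128: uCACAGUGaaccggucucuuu
miR-9: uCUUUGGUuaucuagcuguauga
miR-26a: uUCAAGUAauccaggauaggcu
miR-26b: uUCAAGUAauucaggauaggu
miR-137: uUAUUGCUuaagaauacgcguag
miR-103: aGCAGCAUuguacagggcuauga
miR-107: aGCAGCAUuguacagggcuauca
miR-125b-5p: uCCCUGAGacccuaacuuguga
miR-125a-5p: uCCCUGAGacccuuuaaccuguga
miR-99a: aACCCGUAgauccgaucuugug
miR-100: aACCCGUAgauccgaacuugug

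A sequence was found for 285 of the 452 names, 275 of them in RefSeq and 10 in a sequence list of the study alone, and these names held 96.3% of the counts. For 131 of these names the arm was chosen by comparing the count with the genome alignments of these same samples. let-7c, let-7a, miR-29a, miR-9, miR-137 and miR-103 are among them, so their sequences were not matched by name alone. miR-124, miR-23b, miR-30d and miR-99b are given by name only.

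The libraries held 3206221 (index 3), 4956117 (index 7) and 4053518 (index 11) counts on miRNAs, and single lanes held 1026053 to 3172651. Levels are in CPM, for which the miRNA total of each library is set to 1000000, as the mean ± SD of n = 3 libraries. A count of 0, taken to allow 3 counts, corresponded to up to 0.936, 0.605 and 0.740 CPM at index 3, 7 and 11. Of the 452 miRNAs, 361 were counted in all 3 libraries, 50 in 2 and 41 in 1. The individual lanes listed 440 of them and the shared lane added 12.

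Counts were concentrated on a small number of miRNAs. From 10000 CPM upwards there were 16 miRNAs, which held 88.0% ± 2.15 of the counts, with 86.4% at index 3, 87.1% at index 7 and 90.4% at index 11. A further 35 miRNAs between 1000 and 10000 CPM held 8.63%, and 83 between 100 and 1000 CPM held 2.90%. The remaining 122 miRNAs between 10 and 100 CPM, 84 between 1 and 10 CPM and 112 under 1 CPM held 0.437%, 0.0350% and 0.00400%. let-7c alone accounted for 27.4% ± 0.923 of the counts, the 10 most abundant miRNAs for 82.1% ± 4.89 and the 20 most abundant for 91.8% ± 2.02. Most detected miRNAs thus lay below 100 CPM and together made up a very small part of the counts.

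**Figure D1:**
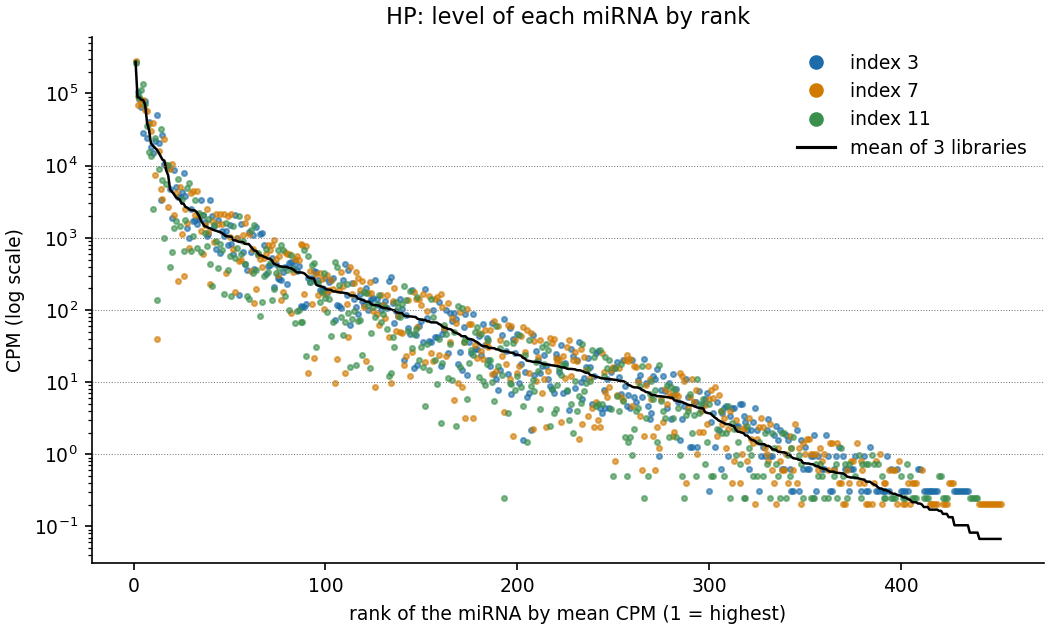
Level of each of the 452 miRNAs in HP (y axis, CPM, log scale) against its rank by mean CPM (x axis), with points for the 3 libraries and a line for their mean. Dotted lines mark the borders of the abundance classes; 16 miRNAs lie above 10000 CPM and 112 below 1 CPM, and points of the libraries spread widely around the line at most ranks.

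let-7c was the most abundant miRNA at every index, with 271387 CPM at index 3, 284835 at index 7 and 267159 at index 11, a mean of 274461 ± 9230 CPM. It is encoded by Mirlet7c-2 (NCBIM37 chr15:85537033-85537127, plus strand, outside annotated genes) and by Mirlet7c-1 (chr16:77599902-77599995, plus strand, opposite an intron of Gm11146), and the mature sequence cannot tell the loci apart. let-7a followed with 105829, 68934 and 91717 CPM and let-7b with 84756, 87796 and 89887 CPM. let-7b comes from Mirlet7b (chr15:85537749-85537833, plus strand), less than 1 kb downstream of Mirlet7c-2. let-7f reached 79894, 58506 and 70868 CPM. The 3 libraries lay close together for let-7c and let-7b and further apart for let-7a and let-7f.

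Outside let-7, several brain-enriched miRNAs were among the most abundant species. miR-128, which dampens neuronal excitability, was counted at 63974, 70734 and 110495 CPM. Its hairpins lie in introns of R3hdm1 (Mir128-1, chr1:130098938-130099007, plus strand) and Arpp21 (Mir128-2, chr9:112021140-112021215, minus strand), and 910992 alignments lay on Mir128-1 against 87495 on Mir128-2. How the aligner placed reads that match both hairpins is not given in the sources used here, so these numbers do not give the output of each locus. miR-9, a regulator of neurogenesis, reached 23927, 57807 and 35218 CPM and has 3 hairpins, of which Mir9-2 (chr13:83878419-83878490, plus strand) lies in an exon of the non-coding gene C130071C03Rik. miR-124, which represses non-neuronal transcripts in neurons, reached 15170, 39174 and 2504 CPM. Index 11 was high for miR-128 and low for miR-124, and index 7 was high for miR-9 and miR-124.

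miR-137, which acts on neuronal maturation and synapses, had the most uneven level of the 264 miRNAs with 10 counts or more in each library. It reached 50060 CPM (160502 counts) at index 3, 39.3 CPM (195 counts) at index 7 and 137 CPM (557 counts) at index 11, ranking 6, 166 and 102. Its levels in the 2 runs of a library were within a ratio of 1.09, 1.21 and 1.11 at index 3, 7 and 11. Its place among the 20 most abundant miRNAs therefore rests on the index 3 library alone. It is encoded by Mir137 (chr3:118136775-118136847, plus strand, outside annotated genes). The mature sequence there had 93877 genome alignments, or 0.582 per count, beside 0.995 per count for miR-128, and the reason was not tested.

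miR-29a was counted at 28105 CPM at index 3, 80080 at index 7 and 134467 at index 11, and miR-99a at 3368, 4684 and 32655 CPM, so both were highest at index 11. miR-125b-5p, a miRNA of dendritic spines, was highest at index 3, with 26712, 3405 and 6233 CPM. miR-103 reached 10551, 23707 and 995 CPM, miR-107 reached 4685, 8963 and 393 CPM, and miR-222, a cell cycle regulator, reached 1907, 10466 and 628 CPM. These last 3 shared the order of index 7 over index 3 over index 11. Only 12 miRNAs were among the 20 most abundant in all 3 libraries, and 31 were among them in at least 1. Since each index was prepared once, the index and the library preparation cannot be told apart.

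**Figure D2:**
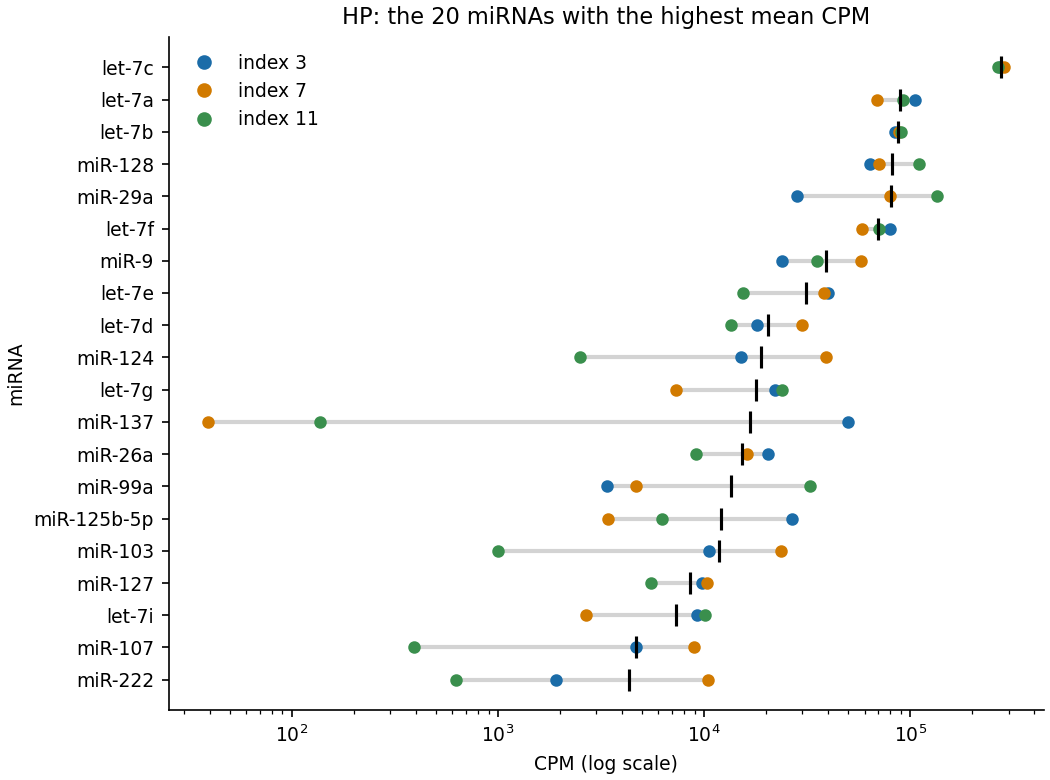
The 20 miRNAs with the highest mean CPM in HP (y axis) and their CPM in each library (x axis, log scale), with the black bar at the mean and the grey line from the lowest to the highest library. let-7c and let-7b show nearly no spread, while miR-137 extends from 39.3 to 50060 CPM.

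When counts were summed by seed, or by name for miRNAs without a sequence, 367 families were obtained, of which 234 had a seed. Some names without a sequence, such as miR-30d, were counted within a seed family. Of the 367 families, 48 had 2 or more members, and these 48 held 78.4% of the counts. The 10 largest families held 89.8%, 89.3% and 92.4% of the counts at index 3, 7 and 11. let-7 was the largest by far, with 633093, 578674 and 584844 CPM, or 59.9% of all counts. It was followed by miR-29 with 37042, 82431 and 136520 CPM. The ranking after let-7 differed between the libraries.

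The let-7 sum was more even than those of most of its members. Its highest library was 1.09 times its lowest, compared with 1.07 for let-7c, 1.06 for let-7b, 2.57 for let-7e, 3.28 for let-7g and 3.81 for let-7i. let-7g, in an intron of Wdr82, was counted at 22024, 7313 and 23980 CPM and let-7i at 9231, 2664 and 10137 CPM, so both were lowest at index 7. let-7e and let-7d instead were lowest at index 11, with 39868, 38111 and 15498 CPM and with 18016, 29925 and 13503 CPM. miR-98 was the least abundant member with 2088, 590 and 2095 CPM.

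The sum of a large family sets much of the CPM scale, and the evenness of let-7 depended on it. TMM factors were 1.16, 1.26 and 0.683 for index 3, 7 and 11, and with them the let-7 ratio was 1.86, against 1.46 with median-of-ratios factors. An order of indexes that rests on a ratio under 1.84, the range of the TMM factors, can therefore turn with the scaling. The shares of members within a family are free of this scaling.

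Within the miR-103/107 and miR-26 families the shares of the members were steady while the family moved. miR-103 made up 69.3%, 72.6% and 71.7% of the miR-103/107 family, whose sum was 15236, 32670 and 1388 CPM, a 23.5-fold range. Both miRNAs differ by G22C alone, near the 3′ end. miR-26a, which promotes differentiation and lies in genes of the CTD phosphatase family, made up 80.1%, 79.5% and 84.0% of miR-26, and miR-26b the rest. For these pairs the index that was high for 1 member was high for the other. Up to 2 mismatches were allowed, and how many reads of 1 member were counted for the other was not tested. Genome alignments per count were 0.909 for miR-103 and 0.586 for miR-107, and 0.928 for miR-26a and 0.648 for miR-26b.

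In other families the shares shifted. miR-29a made up 75.9% of the miR-29 family at index 3 but 97.1% and 98.5% at index 7 and 11, with miR-29c, which differs by C10U, at 8656, 2051 and 1376 CPM. miR-125b-5p held 87.6%, 57.6% and 78.0% of its family, with miR-125a-5p at 3774, 2510 and 1753 CPM. miR-99a held 85.5%, 86.5% and 95.6% of miR-99/100. Among the smaller families, miR-132, an activity-regulated miRNA, held 96.9%, 69.3% and 97.3% of the family with miR-212, and miR-222 held 43.2%, 71.7% and 48.7% of the family with miR-221. Members of a family thus did not always share the order of the indexes, as for miR-29a and miR-29c, which differ at 1 position. Other pairs differ more, with 7 differences for miR-125a-5p, 5 for miR-212 and 12 for miR-221 from the leading member.

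**Figure D3:**
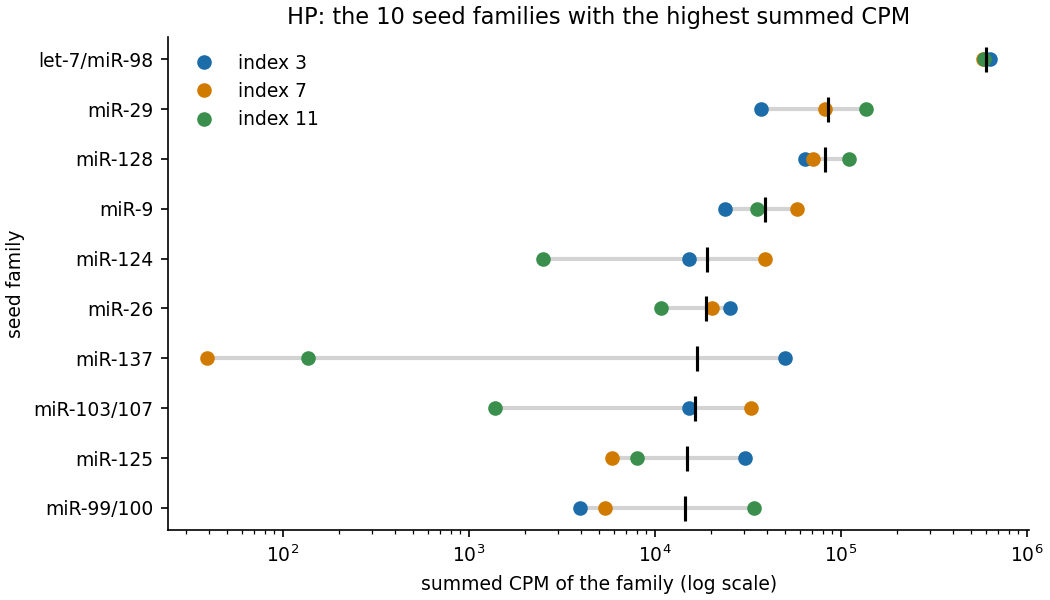
Summed CPM of the 10 largest seed families in HP (x axis, log scale), of which miR-124 is grouped by its name. There is 1 point for each library, with the black bar at the mean and the grey line from the lowest to the highest library. let-7 with miR-98 lies at 578674 to 633093 CPM in all libraries, and miR-103/107 ranges from 1388 to 32670 CPM.

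The miR-30 family, which is expressed in many tissues, reached 7506, 10334 and 2766 CPM over 6 members, led by miR-30a with 3621, 5080 and 1478 CPM. It contains miR-384-5p, a miRNA of brain tissue whose seed is the same although the rest of its sequence differs from miR-30a at 10 positions, and which was counted at 434, 13.5 and 68.3 CPM. The miR-181 family, with roles in synaptic and immune cells, had 2463, 2442 and 2713 CPM. Its even sum (ratio 1.11) was made of miR-181a, lowest at index 11 with 1660, 1507 and 1161 CPM, and miR-181b, higher at index 11 with 597, 709 and 1462 CPM. With TMM factors the ratio of the sum was 2.05.

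Hairpins on the same strand with starts within 10 kb of each other were joined into clusters. Of the 452 names 424, with 97.9% of the counts, could be placed on a hairpin, and 44 clusters had at least 2 hairpins with a counted miRNA. The 219 names in these clusters held 71.0%, 72.3% and 76.4% of the counts at index 3, 7 and 11. Names with several loci, such as let-7c, let-7a and let-7f, were counted whole in each of their clusters, since the counts do not separate the loci.

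The clusters with the highest summed level were those of let-7. The pair Mirlet7c-2 and Mirlet7b on chromosome 15 summed to 362044 ± 9211 CPM, and let-7c made up 75.8% of it. Mir99a and Mirlet7c-1 on chromosome 16 summed to 288030 ± 12595 CPM, of which 13569 CPM remained without let-7c. Mirlet7a-1, Mirlet7f-1 and Mirlet7d on chromosome 13 (chr13:48631381-48633641, minus strand) summed to 179081 ± 23327 CPM, of which 20498 CPM were specific to this locus. Mir99b, Mirlet7e and Mir125a on chromosome 17 (chr17:17967152-17967843, plus strand) had no copy elsewhere and summed to 43971, 41296 and 17961 CPM, with let-7e making up 90.6%. In this last cluster, where every member has a single locus, let-7e was thus far above its neighbours miR-99b and miR-125a-5p.

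Levels within other clusters were also unequal. In the cluster of Mir23b, Mir27b and Mir24-1 on chromosome 13 (intron of 2010111I01Rik), miR-23b varied from 7993 CPM at index 3 to 297 and 652 CPM, whereas its neighbour miR-27b, a regulator of lipid and vessel genes, was steady with 1837, 2082 and 2188 CPM. In the cluster of Mir212 and Mir132 on chromosome 11 (chr11:74986890-74987249, plus strand), whose transcription follows CREB activity, miR-132 reached 3712, 252 and 6502 CPM and miR-212 reached 117, 112 and 179 CPM. At index 3 and 11 miR-132 was thus far above miR-212, and at index 7 the gap was small. In the miR-106b-25 cluster within Mcm7, miR-25 held 59.0% of 1013 ± 392 CPM. The Sfmbt2 cluster on chromosome 2 had the most hairpins assigned a counted miRNA, 40 of 73, but only 17 names. A name was assigned to every copy of its hairpin, so the 40 are not hairpins shown to be active. The cluster summed to only 186, 93.8 and 36.0 CPM.

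The imprinted region of chromosome 12 between Dlk1 and Dio3 carries the largest group of brain miRNAs, which are made from the maternal chromosome. Its 57 hairpins span 203 kb (chr12:110782751-110986170, plus strand), and 50 of them had a counted miRNA. The 73 names summed to 30054, 32127 and 20643 CPM, or 2.76% of the counts. Of these names 8 had at least 1000 CPM, 32 at least 100 and 17 under 10, so that counted names of the same region differed by orders of magnitude. Alignments at a hairpin did not always follow its counted names. Mir412 had 901 alignments while miR-412 had 0.381 CPM, and Mir493 had 298 while miR-493 had 0.446 CPM. A low level of a name therefore does not show that its hairpin was silent.

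The part antisense to Rtl1, a gene needed for placental growth, held the highest levels. miR-127 was counted at 9776, 10354 and 5505 CPM, miR-434-3p at 4354, 1131 and 3459 CPM and miR-433 at 1709, 4457 and 1050 CPM. Their hairpins lie opposite an exon of Rtl1, and the highest index was a different one for miR-434-3p than for miR-127 and miR-433. miR-432 of the same list was at 0.

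The miR-379/410 part, with 38 hairpins in 38.9 kb, summed to 12375, 13486 and 9411 CPM and was spread over many members. miR-369-5p led by its mean, with 11.1% of the summed level, but it was the highest member at index 3 only, with 1986, 1700 and 216 CPM. Within it miR-382 reached 1259, 1576 and 673 CPM, miR-411 reached 1235, 329 and 1604 CPM, miR-541 reached 696, 2150 and 896 CPM and miR-487b reached 1062, 2107 and 168 CPM. miR-134, which limits spine size through Limk1, was low with 6.24, 52.1 and 1.48 CPM, based on 20, 258 and 6 counts. miR-485, a miRNA of synapse homeostasis, reached 140, 237 and 97.4 CPM, and miR-329 reached 23.7, 27.4 and 46.9 CPM. Of the names listed for the miR-379/410 part, miR-654-5p, miR-654-3p and miR-453 were at 0. Between the parts, miR-341 and miR-370 in introns of the non-coding gene Rian had 211 ± 53.2 and 21.3 ± 6.66 CPM. Of the 57 names of the region with at least 10 counts in every library, 10 were within 2-fold between indexes, beside 49 (18.6%) of the 264 miRNAs compared in all of HP. In the region 29 were highest at index 7, 16 at index 3 and 12 at index 11, beside 106, 86 and 72 of the 264. The highest index depended on the scaling, since with TMM factors these numbers over the 264 were 83, 66 and 115.

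**Figure D4:**
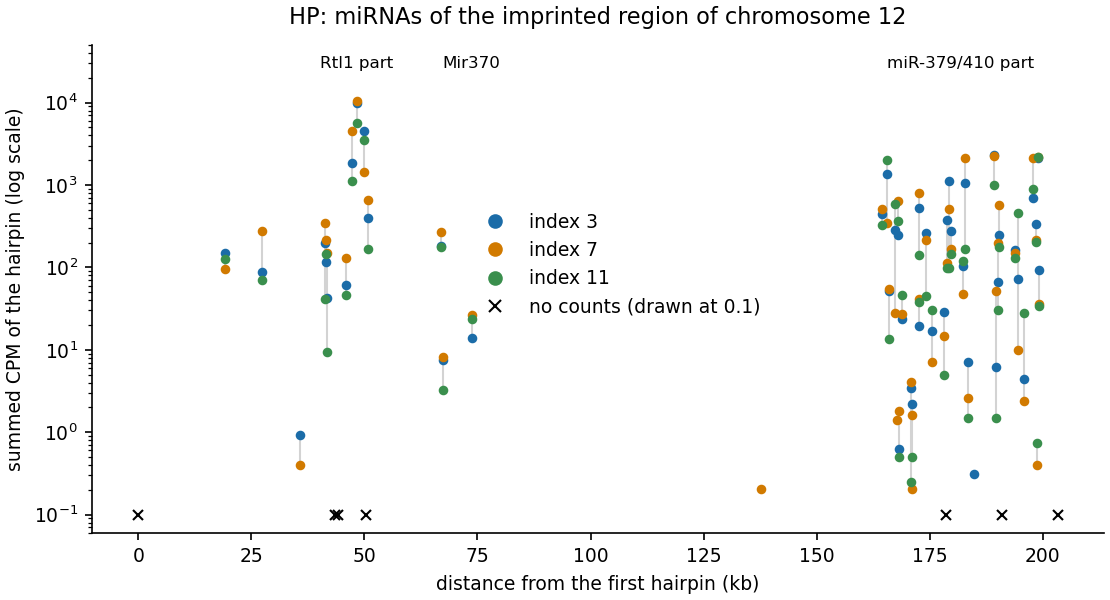
Summed CPM of the counted names of each hairpin (y axis, log scale) in the imprinted region of chromosome 12 against the distance from its most upstream hairpin (x axis, kb), 1 point for each library and crosses for hairpins with no counts. Levels peak at the Rtl1 part, where the hairpin of miR-127 lies between 5741 and 10515 CPM, and are spread over several orders of magnitude in the miR-379/410 part.

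The arms of a hairpin could be compared for 102 pairs with at least 10 counts in every library. This comparison is a share within a library and is free of the scaling. The same arm led at every index in 76 pairs, and in 44 of them it held over 90% at every index. For let-7b, let-7d, let-7f, let-7g and let-7i the main arm held over 99% in each library, for miR-124 it held 99.7%, 99.6% and 99.2%, and for miR-9 it held 92.0%, 99.7% and 98.5%, with miR-9* at 2068, 177 and 521 CPM. The star name was the more abundant by mean share in 9 of the 69 pairs named in that way. Among these, miR-140* held 99.6%, 99.9% and 99.7% of its pair and miR-136* held 97.9%, 96.0% and 93.8%. In the other pairs named in that way the arm without a star was the more abundant by mean share.

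In 26 pairs the leading arm changed with the index. The most abundant was miR-369, with miR-369-5p at 92.6%, 78.3% and 9.74% of the pair, although both arms together were nearly constant at 2145, 2171 and 2220 CPM. In the same region, miR-376b made up 96.5%, 37.4% and 94.4% and miR-409-5p 70.9%, 76.2% and 36.2% of their pairs. miR-151-5p made up 73.7%, 42.9% and 86.0% and miR-674 made up 80.6%, 97.9% and 13.3%. The leading arm of these hairpins thus differed between libraries of the same RNA pool. These pairs were chosen after their values were seen.

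The labelled tissue was checked against marker lists, which are given by summed level. All 12 listed neuronal miRNAs were counted, with 159634, 173377 and 162198 CPM in sum. The 7 epithelial and the 3 gut and kidney miRNAs were also all counted, so detection alone does not mark the tissue. Beside miR-128, miR-9, miR-124 and miR-137, miR-218 reached 994, 714 and 5721 CPM, miR-138, which limits spine growth, reached 619, 2161 and 827 CPM, and miR-129-5p reached 805, 1980 and 362 CPM. miR-153, a miRNA that acts on synaptic proteins, was the lowest with 3.74, 5.85 and 10.4 CPM. The even sum thus covers members that moved in opposite ways between indexes.

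Of the 16 listed plasticity miRNAs, known from dendrites or from regulation by neuronal activity, 16 were counted, with 171115, 201079 and 196534 CPM. They ranged from miR-29a to miR-188-5p, a miRNA of long-term potentiation, which had 3, 1 and 2 counts. miR-130a was at 11.9, 15.5 and 3.95 CPM. The listed miRNAs of synaptic plasticity therefore covered nearly the whole range of levels, and 6 of them, miR-29a, miR-9, miR-124, miR-137, miR-26a and miR-125b-5p, were among the 20 most abundant miRNAs.

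Markers of other cells of the tissue were lower. Oligodendrocyte miRNAs, needed for myelination, summed to 1913, 2463 and 421 CPM, with miR-219 at 1754, 1539 and 383 CPM and miR-338-3p at 121, 769 and 22.9 CPM. The 9 blood and microglial miRNAs summed to 274, 303 and 300.2 CPM, of which miR-146a, a brake on inflammatory signalling, had 171 ± 54.0 CPM and miR-451, the erythrocyte miRNA, had 74.5 ± 62.6 CPM. Of the defining haematopoietic miRNAs, miR-142-5p had 19.0, 6.66 and 6.41 CPM. The other arm of its hairpin, miR-142-3p, was near the limit with 4, 5 and 0 counts, and miR-223 had 3, 16 and 0 counts. Endothelial miR-126-5p and miR-126-3p summed to 140, 89.6 and 149 CPM and the mural list, led by miR-143 with 397 ± 257 CPM, to 350, 286 and 695 CPM. In bulk tissue, fewer cells of a type and less miRNA per cell cannot be told apart.

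The 8 choroid plexus and ependymal miRNAs summed to 272, 284 and 109 CPM, of which miR-34c had 138 ± 116 CPM and miR-204 had 91.4, 5.65 and 50.3 CPM. miR-449a and miR-449b, from a hairpin cluster on chromosome 13, had 2, 4 and 0 counts and 9, 38 and 2 counts. Epithelial miRNAs summed to 93.3, 143 and 43.4 CPM, with miR-200a and miR-200b at 25.6 ± 30.3 and 25.7 ± 26.6 CPM and miR-205 at 1 count. Their part in the levels of other miRNAs was not tested.

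Most single markers of distant tissues were rare, but some of their lists were not low in sum. The endocrine list summed to 1597, 788 and 272 CPM, muscle to 127, 819 and 72.0 CPM and gut and kidney to 222, 333 and 141 CPM. Their means of 885, 340 and 232 CPM lay above the 126 CPM of the endothelial list, and miR-7a, miR-1 and miR-192 were their highest members. miR-1, the muscle miRNA, was counted at 112, 808 and 67.3 CPM, while miR-133a had 3, 6 and 8 counts and miR-206 had 31, 35 and 7. miR-208b was at 0, which allows up to 0.936, 0.605 and 0.740 CPM as for every miRNA listed at 0. Liver miR-122 had 15, 119 and 2 counts. Of the endocrine list, miR-7a reached 1181, 388 and 129 CPM and miR-375 reached 82.3, 81.3 and 110 CPM, while miR-217 had 7 counts and miR-216a was at 0. miR-192, common in gut and kidney, had 187, 329 and 128 CPM. Among the Hox-linked miRNAs of the posterior body, miR-10a had 7, 8 and 4 counts and miR-10b and miR-196b were at 0. Of the 14 miRNAs of pluripotent cells 13 were at 0, and miR-292-3p had 3 counts. The retinal and cochlear miR-96 was at 0 too, beside 8 counts of miR-182 and 4 of miR-183.

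Rare miRNAs were defined as those with 2 to 10 counts over the 6 lane files. There were 81, with 399 counts together, or 0.00327% of all counts, and 25 more had a single count. Of the 81, 22 were counted in all 3 libraries, 44 in 2 and 15 in 1, and 62 were counted in both an individual and the shared lane. Star forms made up 29 of them. Index 7, the deepest library, listed 64 of them, index 3 listed 55 and index 11 listed 50.

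Rare miRNAs with counts at every index were of several kinds. Star forms were miR-15a* (2, 7 and 1 counts), miR-146b*, let-7i*, miR-300*, miR-203*, miR-214* and miR-31*. Listed markers of epithelia and sensory organs were miR-200c (3, 3 and 2 counts) and miR-183. Those of other tissues were miR-133b of muscle (1, 1 and 2 counts), miR-144 of red cells (5, 1 and 3 counts) and miR-217 of the pancreas (2, 3 and 2 counts). X-linked members were miR-188-5p, miR-224, miR-542-3p (2, 5 and 1 counts), miR-764-5p and the miR-465a-3p/miR-465b-3p/miR-465c-3p group. Members or relatives of the Sfmbt2 cluster were miR-467d (3, 5 and 1 counts), miR-466d-3p and the miR-297a*/miR-297b-3p/miR-297c* group, and miR-709 and miR-702 completed the list. For let-7i*, which was counted in all 6 lane files, the 8 counts correspond to 0.655 CPM over all libraries with an exact Poisson 95% interval of 0.283 to 1.29 CPM. For miR-15a* with 10 counts the interval was 0.393 to 1.51 CPM. Intervals cover counting error only, since the reads carry no molecular identifiers. Up to 2 mismatches were allowed, and how many of these counts are reads of related miRNAs was not tested. No order of levels can be drawn among the rare miRNAs.

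Levels were compared between indexes wherever each library had 10 counts or more, which left 264 miRNAs. The highest library was on the median 4.05 times the lowest. In 49 miRNAs (18.6%) the ratio was 2 or less, and these miRNAs held 62.6% of the counts, because let-7c, let-7a, let-7b, let-7f and miR-128 were among them. In 58 it was above 10 and in miR-137 alone above 100. A second run of the same library gave closer values, with a median ratio of 1.46, 1.18 and 1.09 for index 3, 7 and 11, and 211 miRNAs were within 2-fold between runs at every index.

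The miRNAs with the most even levels among the 134 with at least 100 CPM were led by let-7b and let-7c, followed by miR-25 with 578, 596 and 620 CPM and miR-92a with 396, 339 and 365 CPM. Both belong to the proliferation-linked miR-25/92 family with miR-92b, at 1123, 1187 and 1805 CPM, and the shared seed is shown here because the family was even by library totals (ratio 1.33). With TMM and median-of-ratios factors the ratio of the family was 2.42 and 2.04, outside 2-fold, and that of miR-92b was 2.80 and 2.47. The 2 runs of the index 3 library differed by a ratio of 1.26 for let-7b, 1.23 for let-7c, 1.53 for miR-25 and 2.03 for miR-92a. Between indexes the ratios were 1.06, 1.07, 1.07 and 1.17, so these summed libraries lay closer together than the runs of that library.
miR-25: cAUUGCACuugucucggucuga
miR-92a: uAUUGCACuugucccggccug
miR-92b: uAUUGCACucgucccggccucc

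Next came miR-27b (ratio 1.19), miR-672 (1.36), let-7f (1.37), miR-30a* (1.37), miR-181a (1.43) and miR-129-3p (1.43). Between the runs of index 3 the ratio was wider for miR-27b (1.33), miR-30a* (1.48), miR-181a (1.83) and miR-129-3p (1.53). For miR-672 (1.19) and let-7f (1.17) it was smaller. miR-672 had 117, 118 and 87.3 CPM and miR-30a* had 987, 983 and 723 CPM, more even than miR-30a from the other arm. These miRNAs span levels from 108 CPM for miR-672 to 274461 CPM for let-7c, so an even level was not limited to abundant species.

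At the other end, after miR-137, were miR-496 with 72.7, 9.89 and 460 CPM, miR-380-3p with 275, 13.5 and 559 CPM and miR-338-3p with 121, 769 and 22.9 CPM. miR-384-5p and miR-384-3p of the same hairpin moved together, the latter with 261, 8.47 and 80.4 CPM. miR-365, miR-23b, miR-132 and miR-674 followed with ratios of 29.2, 26.9, 25.8 and 24.4. Their libraries were far apart while both runs of a library were closer, for example 1.29 and 1.27 between runs of index 3 and 7 for miR-496. The run ratios were larger for miR-132 (1.80), miR-23b (1.59) and miR-674 (1.47) at index 3 and for miR-380-3p (1.53) at index 7.
miR-496: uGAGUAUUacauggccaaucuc
miR-380-3p: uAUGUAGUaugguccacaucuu
miR-338-3p: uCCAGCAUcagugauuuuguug
miR-384-5p: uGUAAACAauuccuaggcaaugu
miR-132: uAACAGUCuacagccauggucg

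These sequences are shown because they carried the widest ranges, and no 2 of them share a seed. Each of the 10 miRNAs with the widest range, miR-137, miR-496, miR-380-3p, miR-338-3p, miR-384-5p, miR-384-3p, miR-365, miR-23b, miR-132 and miR-674, kept a ratio of at least 13.3 with TMM or median-of-ratios factors.

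Which miRNAs were even depended on the scaling. With TMM factors 53 of the 264 were within 2-fold and with median-of-ratios factors 48, but only 24 were so under all 3 scalings and 78 under at least 1. Among the 24 were let-7b, let-7c, miR-25, miR-92a, miR-672, miR-30a*, miR-181a, miR-129-3p and miR-127, while let-7f (ratio 2.23) and miR-27b (2.03) lay outside with TMM factors. miR-127 was closer with TMM factors (1.04) than by library totals (1.88). By totals index 11 was the lowest for 128 of the 264 miRNAs, and with TMM factors for 83. The index that is most often lowest therefore depended on the scaling, being index 7 (110 miRNAs) with TMM factors.

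**Figure D5:**
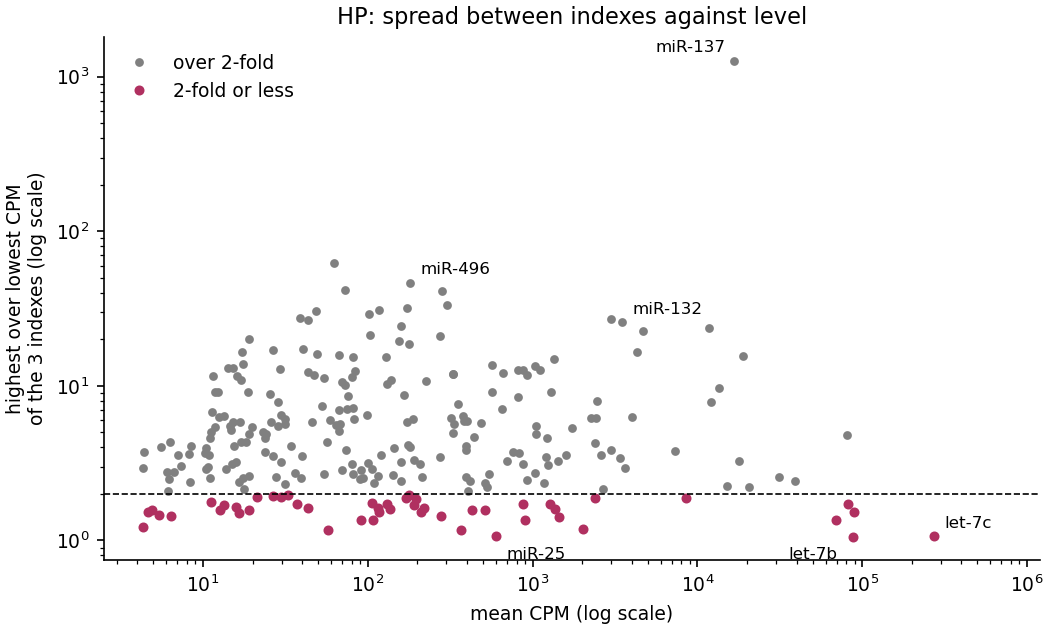
Ratio of the highest to the lowest library (y axis, log scale) against mean CPM (x axis, log scale) for 264 miRNAs of HP, each a point, that had 10 counts or more per library. The dashed line marks 2-fold; 49 miRNAs lie on or below it, at low as well as high levels, and miR-137 stands alone at 1272.

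Genome alignments of the same lanes showed where the reads lay. Of these alignments 81.0%, 83.3% and 73.5% overlapped an annotated hairpin at index 3, 7 and 11, a mean of 79.3% ± 5.10, and 86.7% ± 3.14 were 22 nt long. None was longer than 23 nt. Alignments of 21 nt made up only 0.211% ± 0.110 and those of 23 nt 0.805% ± 0.119. Alignments under 14 nt made up 3.56% ± 2.34, and of those with at least 17 nt 83.7% ± 7.30 lay on hairpins.

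Reads of the abundant miRNAs began where RefSeq places the mature start. For names such as let-7c, let-7b and miR-29a the arm itself had been chosen from the same alignments. The share of alignments at the RefSeq start was 99.4% for let-7c, 99.6% for let-7b, 99.4% for miR-128, 96.7% for miR-29a and 99.4% for miR-99a. It was lower for miR-137 (86.7%) and for miR-101a, a miRNA of the Cox2 and App messages, with 66.8%, 62.0% and 77.0% at index 3, 7 and 11. miR-101a therefore had the lowest share of the 28 miRNAs examined, and a shifted start would give another seed. However, miR-101b has nearly the sequence of miR-101a begun a base earlier, and up to 2 mismatches were allowed. How many of the other starts at miR-101a are reads of miR-101b was not tested. For miR-9 the share was 84.0% at index 3 and 98.0% at index 7. The commonest alignment length was 22 nt for all 28 miRNAs whatever the length of the RefSeq sequence, as for miR-128 (21 nt in RefSeq, 98.0% of alignments at 22 nt), miR-103 (23 nt, 98.4%) and miR-125a-5p (24 nt, 97.2%). Alignment lengths are therefore not read here as lengths or 3′ ends of the mature miRNAs. Why they lay almost all at 22 nt was not tested. The share at 22 nt was lowest for miR-9 (51.6%) and miR-137 (61.8%).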

How the data were processed

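Small RNA libraries of RNA from pooled hippocampi were sequenced on the Genome Analyzer II. The deposited counts are raw, unnormalised read counts per mature miRNA of miRBase version 11, made by the authors after removal of the tag and adaptor. Their alignments to NCBIM37 were made with Bowtie (version not given in the sources used here), allowing up to 2 mismatches. Reads under 14 nt were said to be removed, but shorter alignments are present. miRNAs without a read are not listed and were set to 0.

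The runs of each index were summed and scaled to CPM with pandas 2.3.3 and numpy 2.4.6 under Python 3.11.15. TMM factors came from edgeR 4.0.16 and median-of-ratios factors from DESeq2 1.42.0. The scripts were tested on simulated data. Hairpins (1000 from RefSeq, placed on NCBIM37 by exact sequence match, and 156 from GENCODE) were joined when starts lay within 10 kb. Intervals are exact Poisson (scipy 1.17.1). No test was made, since the libraries share 1 RNA pool.

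Named miRNAs were the 20 most abundant, members of the 10 largest families, listed markers and clusters, the 10 smallest and 10 largest index ratios from 100 CPM, and rare miRNAs with counts in all 3 libraries. The members and lists were chosen with earlier results of these data known. Alternatives were single lanes, left-out libraries, other scalings, thresholds and distances.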

Additional observations from a re-analysis of the deposited data

How the results depend on the processing

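Of 57 comparisons of the main values with an alternative, 49 moved by less than the spread between libraries or stayed within 1.5 times the count, and 8 did not. The share of counts in the let-7 family was 56.5% with the shared lane alone, against 59.9%. The share in clusters was 76.8% with a distance of 50 kb, against 73.2%. With TMM factors the summed level of the clustered names, read as a percentage of 1000000, came to 76.8% too, but scaled levels no longer add up to 1000000 and this is no share of counts, which a scaling of whole libraries leaves as it is. The number of miRNAs within 2-fold was 16 with a 1.5-fold limit and 94 with a 3-fold limit, against 49. Leaving out 1 library gave 92 (without index 3), 120 (without index 7) or 147 (without index 11), where fewer libraries are compared. Among 389 alternatives for single values, 372 stayed within these limits and 17 moved. The pairs in which the same arm led at every index numbered 77 in individual lanes, 71 in the shared lane and 79 to 95 without 1 library, against 76, alternatives chosen after seeing the data. No paired analysis was possible because the results come from no test. Depth limits statements on the 112 miRNAs under 1 CPM, and the reads carry no molecular identifiers.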

Other observations

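The genome alignments also lay on mature miRNAs of RefSeq for which the count lists hold no name. The search listed 76 such entries with at least 10 alignments, 25 with at least 100 and 7 with at least 1000. It did not cover every uncounted arm of a hairpin whose other arm has a listed name. Mir132, for example, had 50045 alignments, of which 39124 lay on the mature miR-132, and its other arm is not among the 76. The highest of the 76 was miR-1839-5p (NCBIM37 chr7:88674805-88674826, plus strand) with 26397 alignments, or 1663, 3605 and 1176 per 1000000 hairpin alignments at index 3, 7 and 11. It was followed by miR-1981-5p with 2055 alignments, miR-1843b-5p with 1652, miR-378d with 1565, miR-1983 with 1389, let-7k with 1099 and miR-3099-3p with 1084. The sequences of miR-1839-5p and let-7k are shown because the first led the list and the second has the let-7 seed.
miR-1839-5p: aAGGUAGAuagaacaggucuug
let-7k: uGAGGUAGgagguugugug

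let-7k (chr5:148094833-148094851, minus strand) had 216, 354 and 529 alignments at index 3, 7 and 11. Up to 2 mismatches were allowed, and how many of these alignments are reads of other let-7 members was not tested. These miRNAs were chosen after their values were seen.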
